A study of Mus musculus with 9 samples.

Results

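A set of 43 genes of DNA replication and cell division were examined in mouse regulatory T (Treg) cells with and without the Hippo kinases Mst1 and Mst2. They were taken by symbol from a fixed list of 19 replication genes and 24 mitosis genes. A gene counted as measured when a probe set of the array named it and no other gene, which held for 41 of the 43, among 22180 measured genes in all. Ccne2 and Ccnb1 had no probe set of their own, so their levels are not analysed here. The promoter of Ccnb1 is included in the promoter counts below. Of 9 samples, 5 were Treg cells of Foxp3YFP-Cre donors (wild type) and 4 of Foxp3YFP-CreStk4f/fStk3f/f donors (Mst1/Mst2-null, below null), both on the C57BL/6 strain. The Cre recombinase is expressed from the Foxp3 locus and removes Stk4 (Mst1) and Stk3 (Mst2) in cells that have switched on Foxp3. Donor marrow carrying CD45.2 was mixed equally with CD45.1 wild-type marrow and grown in RAG1-/- recipients, which lack T and B cells of their own, and CD45.2 CD4+YFP+ cells were sorted 2 months later. Controls therefore carry the same Cre and come from the same kind of chimera, and each sample was hybridised to 1 array. The labels do not say whether samples came from separate animals, so tests measure the spread between these samples, which may be technical.

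A dividing cell first licenses its DNA by loading the Mcm2 to Mcm7 helicase with the help of Cdc6 and Cdt1, then copies it with nucleotides made by ribonucleotide reductase, thymidylate synthase and thymidine kinase. E2F transcription factors, held back by retinoblastoma proteins until cyclin E and its kinase act, switch on many of these genes. Mitosis follows under cyclin B and Cdk1, and ends when the anaphase-promoting complex with Cdc20 destroys securin (Pttg1) and the cyclins. A part of the Treg cell pool divides at any time, and Mki67 and Top2a are commonly used to mark such cells.

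The promoters show how the replication and mitosis lists differ in sequence, a feature that did not enter the choice of genes. RefSeq promoters (build GRCm38.p6, 250 bases before to 50 bases after the start) were found for 16 of 19 replication and 19 of 24 mitosis genes. The motifs below were searched on both strands. The CHR, the cell cycle homology region bound by repressor and activator complexes of the cell cycle, was TTTGAA or TTCGAA. The CCAAT box, the site of NF-Y, was CCAAT. The E2F motif was TTTCCCGC, TTTGGCGC, TTTCGCGC or TTTGCCGC, whose matches can overlap each other. A CHR match was found in 14 of 19 mitosis promoters (73.7%) and in 3 of 16 replication promoters (18.8%), against 21.7% of the 27025 genes with a promoter in the table. An E2F match was found in 8 of 16 replication genes and in 1 of 19 mitosis genes (Cdk1), against 2.60% of all genes in the table. CCAAT was common to both lists (10 of 16 and 16 of 19, against 41.1% of all). Matches of letters are a description and are not shown to be bound sites.

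The promoters of 4 genes are printed because they carry the contrast. They belong to Pttg1, the gene whose level changed, to Cdc20 and Hmgb2 as mitosis genes with a CHR, and to Mcm5 as a licensing gene with an E2F match. Each line holds the 160 bases before the start, and capitals mark every match of the 3 motifs. Coordinates are GRCm38.p6: Pttg1 chr11:43425982-43426141 on the minus strand, Cdc20 chr4:118437344-118437503 on the minus strand, Hmgb2 chr8:57511683-57511842 on the plus strand and Mcm5 chr8:75109349-75109508 on the plus strand.
Pttg1: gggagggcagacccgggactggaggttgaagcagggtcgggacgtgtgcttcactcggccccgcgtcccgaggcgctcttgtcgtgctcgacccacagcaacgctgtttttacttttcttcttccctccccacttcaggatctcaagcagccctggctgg
Cdc20: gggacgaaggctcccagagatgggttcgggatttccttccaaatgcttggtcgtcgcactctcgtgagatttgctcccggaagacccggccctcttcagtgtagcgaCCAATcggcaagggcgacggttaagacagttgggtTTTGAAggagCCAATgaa
Hmgb2: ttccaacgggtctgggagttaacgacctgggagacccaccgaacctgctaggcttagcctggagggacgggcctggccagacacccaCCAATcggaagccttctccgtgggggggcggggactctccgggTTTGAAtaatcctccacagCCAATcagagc
Mcm5: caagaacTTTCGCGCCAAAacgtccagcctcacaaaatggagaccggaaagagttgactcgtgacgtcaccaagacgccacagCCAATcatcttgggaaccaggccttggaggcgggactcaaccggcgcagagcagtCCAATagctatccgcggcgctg

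In Cdc20 the CHR match began 18 bases before the start with CCAAT matches at 53 and 8, and in Hmgb2 the CHR match began at 30 with CCAAT matches at 73 and 11. In Mcm5 a pair of overlapping E2F matches began at 153 and 149 bases before the start. The Pttg1 window of 300 bases held none of the 3 motifs, as did those of Birc5 and Nusap1 among mitosis genes.

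Levels are given as log2 values from RMA, a summary of the probes of a gene, and differences as the null mean minus the wild-type mean on that log2 scale. Every sample had Treg cell markers well above the median of all probe sets (4.04): the mean level of 7 markers lay between 9.84 and 9.90 in wild type and between 9.53 and 9.72 in null samples, and of these Ikzf2 passed the test, lower in null samples (difference -0.72, limma adjusted p = 0.033, lost in 9 of 19 alternative settings with an adjusted p of up to 0.168). Of the 7 Treg cell markers 5 had a difference below 0 (median -0.18). At an unadjusted p under 0.05 there were 4 of the 7 (57.1%, against 14.9% of all genes). Stk4, the targeted gene with a probe set of its own, was 7.84 to 8.09 in wild type against 7.50 to 7.83 in null arrays (limma adjusted p = 0.146). Which exons Cre removes is not known here, so this does not check the deletion. All 7 B cell markers (median difference 0.25) and 8 of 9 myeloid markers (median 0.20) had a difference above 0. The mean over 7 B cell markers was 4.56 to 5.25 in wild type against 4.77 to 5.59 in null arrays, and over 9 myeloid markers 4.58 to 5.39 against 4.76 to 6.21, with both highest in null array 4. Ranges for 7 CD8 and NK cell markers were 4.12 to 4.37 and 4.22 to 4.57, and for 4 erythroid markers 4.59 to 4.79 and 4.60 to 4.80. No gene of these 4 lists passed the limma test. At an unadjusted p under 0.05 there were 6 of 27, against 14.9% of all genes. Cd14, Itgam, Eomes, Klrb1c, Klrd1, Ncr1 and Klf1 had means below the median of all probe sets. The part of the marker genes in the results below was not tested.

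Of the 41 measured genes, 1 rose in null Treg cells, 0 fell and 40 did not pass the test (limma, a threshold of 0.05 on the p adjusted over all genes). The same test called 2.32% of all genes, 0.428% as higher and 1.89% as lower. The share among the 41 was near the 2.32% of all genes. With genes of mean below the probe set median left out, the test called 6.21% of 11349 genes and 1 of the 36 members kept. Groups did not overlap for 2 of the 41, Pttg1 and Mcm3, against 6.16% of all genes. At an unadjusted p under 0.05 there were 7 of 41 (17.1%), against 14.9% of all genes. The gene that rose was Pttg1, which encodes securin, the inhibitor of the protease separase that keeps sister chromatids joined.

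Pttg1 was 5.68, 5.64, 5.71, 5.74 and 5.65 in wild-type arrays 1 to 5, and 6.22, 6.76, 6.33 and 6.82 in null arrays 1 to 4. The wild-type arrays lay close together and every null array lay above all of them, with null arrays 2 and 4 the highest. Groups parted upward in this way in 1.76% of all genes. The means were 5.68 ± 0.041 (SD, n = 5) and 6.53 ± 0.30 (SD, n = 4), a difference of 0.85 (95% interval 0.58 to 1.12) or 1.80-fold (limma adjusted p = 0.00717). Over 19 alternative settings the difference lay between 0.59 and 0.96 and the adjusted p between 0.00328 and 0.0488, all on the same side of the threshold. With null arrays 2 and 4 left out it was 0.59.

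The partners of securin in anaphase did not pass the test. Cdc20, the activator of the anaphase-promoting complex, was 4.29, 4.17, 4.11, 4.17 and 4.17 in wild type and 4.17, 4.17, 4.09 and 4.32 in null arrays, so the groups overlapped (difference 0.0069, 95% interval -0.14 to 0.15). Its means (4.18 in wild type and 4.19 in null samples) lay just above the median of all probe sets (4.04), and 5 arrays shared 1 deposited value. Cdc20 was named for its role beside securin after its values were seen. Ube2c, the ubiquitin-conjugating enzyme of that complex, differed by -0.087 (interval -0.43 to 0.26), with values of 4.79 to 5.59 in wild type against 4.91 to 5.12 in null arrays.

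The next measured gene beyond Pttg1 in the annotated gene order is Slu7, a splicing factor gene, named here after its value was seen. It was 7.43, 7.40, 7.42, 7.41 and 7.47 in wild-type arrays and 6.92, 7.09, 6.77 and 7.18 in null arrays. Every null value lay below every wild-type value, a fall of 1.35-fold (difference -0.44, limma adjusted p = 0.0236). Of the 10 measured genes nearest to Pttg1, 5 on each side, Slu7 was the 1 that passed, against 2.32% of all genes. For 8 of the 10, the exceptions being Slu7 and Pwwp2a, the mean was under the probe set median, where signal cannot be told from background here. Whether the changes in these neighbours are linked was not tested.

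**Figure D1:**
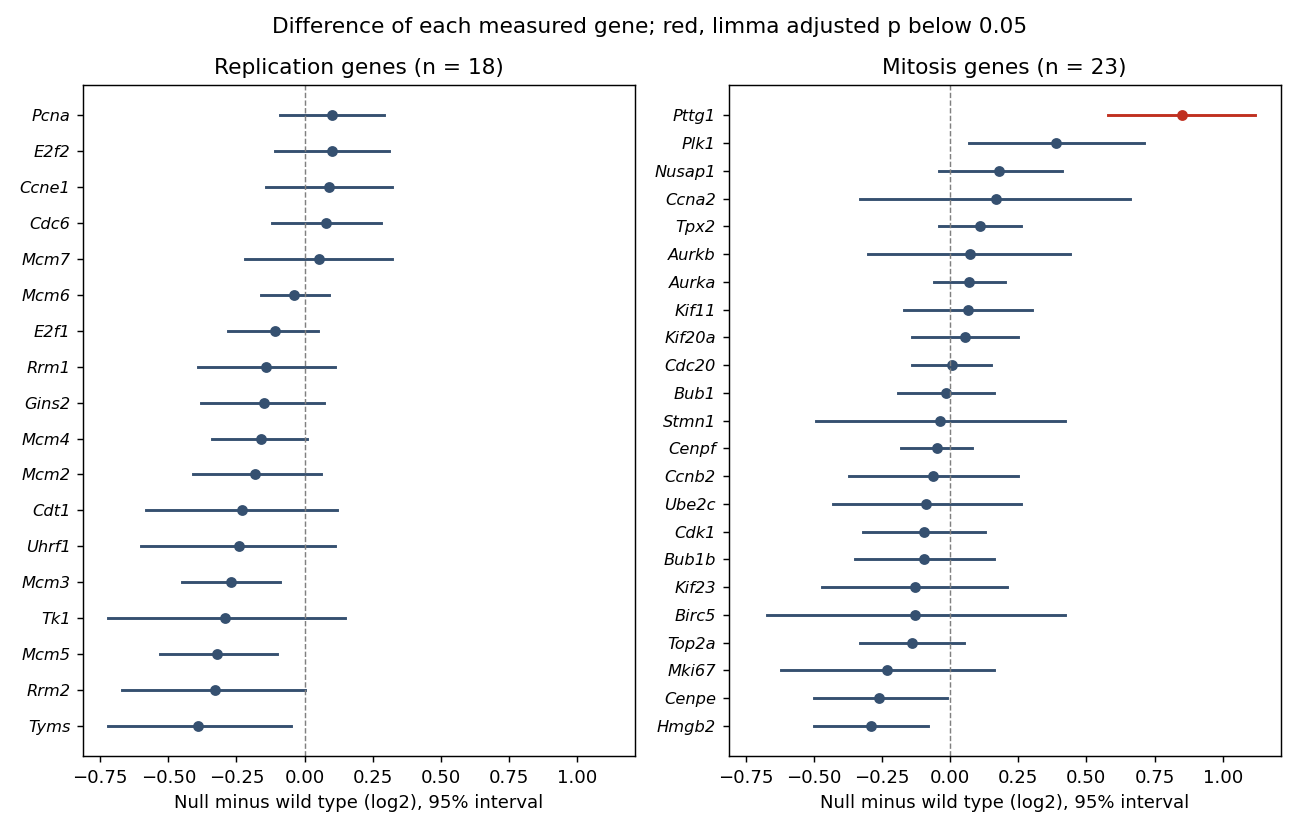
Difference between null and wild-type Treg cells (log2, horizontal axis) for each of 18 replication genes (left) and 23 mitosis genes (right), with points at the difference and lines for the 95% interval. Pttg1 (0.85) is the 1 gene in red, past the test, and 13 of 18 replication genes lie left of 0.

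Replication genes were mostly a little lower in null samples, but none passed the test singly. Of 18 measured, 0 rose and 0 fell with p adjusted over all genes, against 2.32% of all genes called. An unadjusted p under 0.05 was held by 3 (16.7%, against 14.9% of all genes). Of the 18, 13 had a difference below 0 (72.2%, against 49.3% of all genes). Their median difference was -0.16, beside 0.0023 over all genes, and single differences ran from -0.39 to 0.10. With genes of mean below the probe set median left out, the replication median was -0.17, beside -0.037 over all genes kept. After quantile normalization over all genes the replication median was -0.097. The median difference of the 7 Treg cell markers was -0.18, and their part in the replication median was not tested. In bulk samples, fewer cycling cells and less RNA per cell cannot be told apart.

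Among licensing genes the Mcm subunits held the smallest p-values. Mcm3, a subunit of the helicase, was 6.59, 6.43, 6.43, 6.28 and 6.38 in wild-type arrays and 5.99, 6.25, 6.24 and 6.14 in null arrays. The groups did not overlap, although the highest null value lay just under the lowest wild-type one, and the difference was -0.27 (95% interval -0.45 to -0.09, limma adjusted p = 0.138). Groups parted in this direction in 4.40% of all genes and in 1 of the 41. Mcm5 was 6.25, 6.19, 6.21, 6.21 and 6.11 in wild type and 6.14, 5.81, 5.61 and 5.96 in null arrays. Null array 1 lay within the wild-type range and the other three below it (difference -0.32, interval -0.53 to -0.10, limma adjusted p = 0.142).

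The 6 subunits work as 1 ring, but their values were not alike. Differences were -0.18 for Mcm2, -0.16 for Mcm4 and -0.037 for Mcm6, whose interval (-0.16 to 0.09) was the narrowest of the 41 genes, while Mcm7 differed by 0.053 (interval -0.22 to 0.32). Mcm7 was highest in null array 2 (6.02) and null array 1 (5.94) and lowest in null array 4 (5.47). The loaders of the helicase, Cdc6 and Cdt1, differed by 0.079 and -0.23. Cdc6 was 3.49, 3.71, 3.46, 3.55 and 3.61 in wild type and 3.56, 3.56, 3.91 and 3.56 in null arrays, under the median of all probe sets, a range in which signal cannot be told from background here. Cdt1 was 6.01 and 5.83 in null arrays 1 and 3 but 6.64 and 6.54 in null arrays 2 and 4, against 6.37 to 6.58 in wild type.

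Nucleotide supply genes all had differences below 0. Tyms, thymidylate synthase, was 6.21, 6.31, 6.21, 6.39 and 6.36 in wild-type arrays and 5.97, 6.04, 5.37 and 6.26 in null arrays. Null array 3 was lowest by far and null array 4 lay within the wild-type range (difference -0.39, interval -0.72 to -0.05, limma adjusted p = 0.253). Rrm2, the subunit of ribonucleotide reductase whose level follows S phase, was 5.79, 5.90, 5.88, 5.63 and 5.72 in wild type and 5.11, 5.86, 5.16 and 5.68 in null arrays. Null arrays 1 and 3 were low and null arrays 2 and 4 were at wild-type levels, the split also seen in Cdt1 (Rrm2 difference -0.33, limma adjusted p = 0.341). The second probe set of Rrm2 did not repeat that split, with 5.30 and 4.92 in null arrays 1 and 3 and 4.85 and 4.52 in null arrays 2 and 4 (difference -0.16, interval -0.49 to 0.16). Its partner subunit Rrm1 differed by -0.14 and the salvage enzyme Tk1 by -0.29, with Tk1 highest of all arrays in null array 4 (6.58) and lowest in null array 2 (5.57).

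When null arrays 2 and 4 were left out, 3 of the 41 genes passed instead of 1. Besides Pttg1 these were Rrm2 (difference -0.65, limma adjusted p = 0.0107) and Cdt1 (difference -0.57, limma adjusted p = 0.0163), both lower, with 2 null samples remaining. Calls over all genes also rose in that setting, from 515 to 735 of 22180 (3.31%), of which 345 were among the 515. In the other 18 settings neither passed (lowest adjusted p 0.11 for Rrm2 and 0.262 for Cdt1). In null arrays 2 and 4 both genes were no lower than the wild-type range, so leaving these arrays out favours such calls and gives them no support. The second probe set of Rrm2 was 5.30 and 4.92 in null arrays 1 and 3, against 4.92 to 5.33 in wild type.

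The remaining replication genes act at the fork, in entry into S phase and in the copying of chromatin. Pcna, the sliding clamp of DNA polymerase, was 9.82, 9.71, 9.77, 9.45 and 9.75 in wild type and 9.67, 9.92, 9.80 and 9.82 in null arrays. The groups overlapped over most of their range, and the interval of the difference (-0.09 to 0.29) leaves out any fall of more than 0.09. Gins2, part of the active helicase, differed by -0.15 and Uhrf1, which guides the copying of DNA methylation, by -0.24, the latter with 4.88 in null array 1 against 5.64 to 5.66 in the other null arrays. Of the genes that govern entry into S phase, E2f1 differed by -0.11, E2f2 by 0.10 and cyclin E gene Ccne1 by 0.089, each with overlapping groups.

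**Figure D2:**
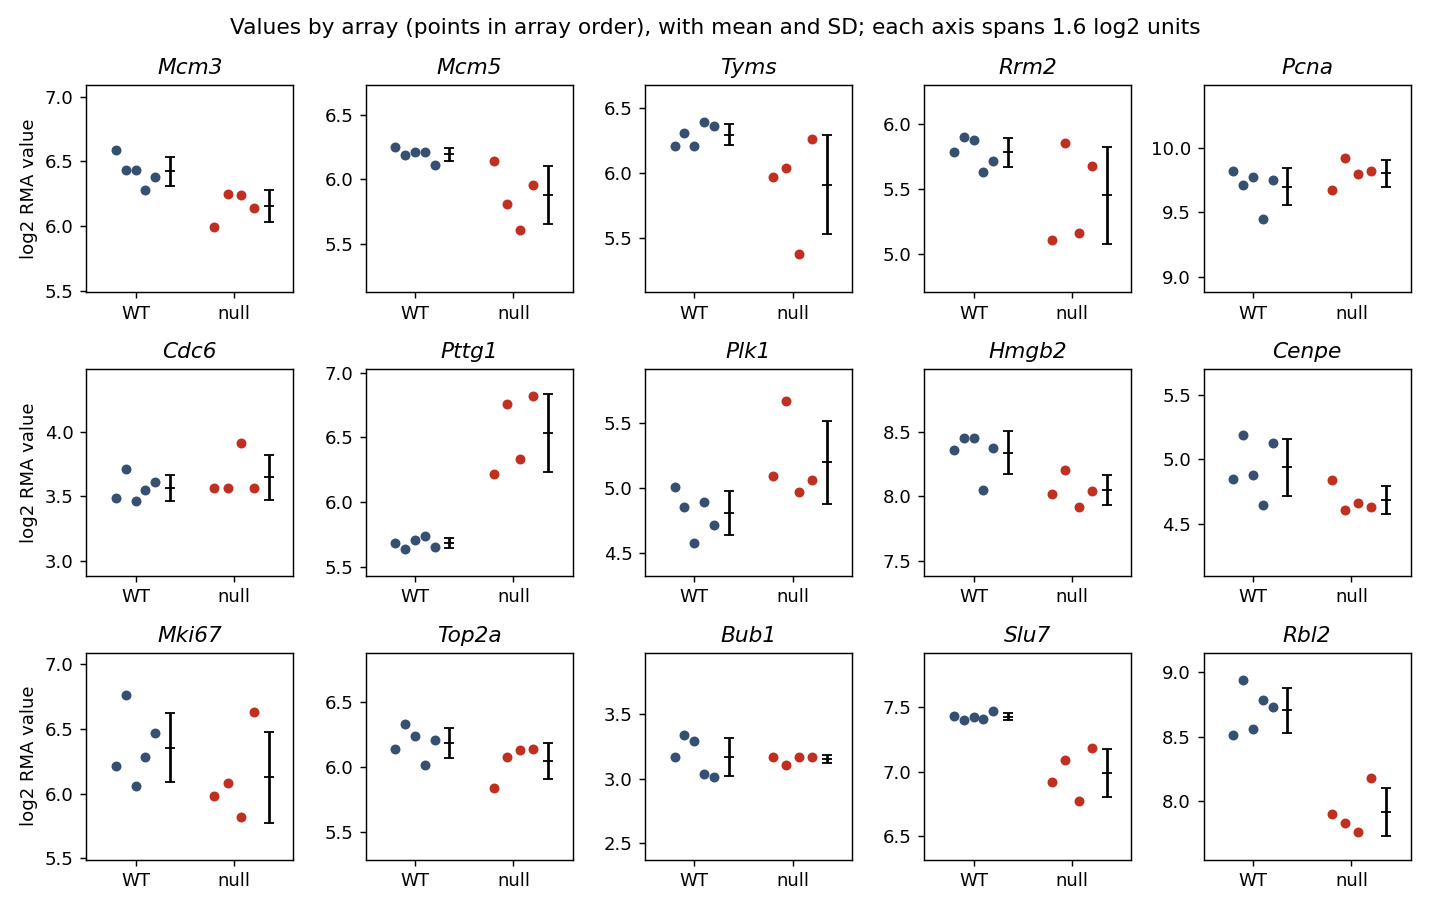
Log2 RMA value in each array (points, in array order within wild type in blue and null in red) with mean and SD (black), for the 13 replication and mitosis genes picked by the naming rule, for Slu7 and for Rbl2. Each vertical axis spans 1.6 log2 units, and Pttg1, Slu7 and Rbl2 are the genes shown whose groups part and which passed the test.

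Mitosis genes had no common direction. Of 23 measured, 1 rose (Pttg1), 0 fell and 22 did not pass, and 13 had a difference below 0 (56.5%, against 49.3% of all genes). The median difference was -0.036, and it was 0.021 without wild-type array 2. With genes of mean below the probe set median left out, it was -0.014, beside -0.037 over all genes kept.

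The standard proliferation markers overlapped between genotypes. Mki67, a coat protein of mitotic chromosomes, was 6.21, 6.76, 6.06, 6.28 and 6.47 in wild type and 5.98, 6.08, 5.82 and 6.63 in null arrays. Null array 4 stood with the high wild-type arrays and the other null arrays at or below the low ones (difference -0.23, interval -0.62 to 0.16). Top2a, the topoisomerase that untangles chromosomes, was 6.14, 6.33, 6.24, 6.02 and 6.21 in wild type and 5.84, 6.08, 6.13 and 6.14 in null arrays (difference -0.14, interval -0.33 to 0.05). Hmgb2, a chromatin protein abundant in dividing cells, was 8.36, 8.45, 8.45, 8.05 and 8.37 in wild type and 8.02, 8.20, 7.92 and 8.04 in null arrays. It had the smallest p after Pttg1 in its list (difference -0.29, interval -0.50 to -0.08, limma adjusted p = 0.160), and wild-type array 4 alone brought the groups into overlap.

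Cyclin and kinase genes were likewise unsettled. Plk1, the polo kinase that drives spindle formation, was 5.01, 4.85, 4.57, 4.89 and 4.71 in wild type and 5.09, 5.67, 4.97 and 5.06 in null arrays. Null arrays 1, 2 and 4 lay above all wild-type arrays, and null array 2 was the highest (difference 0.39, interval 0.07 to 0.71, limma adjusted p = 0.220). Cdk1 differed by -0.096, cyclin A gene Ccna2 by 0.17 with 6.37 in null array 4 against 5.07 to 5.65 in all other arrays, and cyclin B gene Ccnb2 by -0.062. The Aurora kinase genes Aurka and Aurkb differed by 0.069 and 0.073. Birc5, which encodes survivin, the partner of Aurora B in the passenger complex, spread from 3.52 in null array 3 to 4.98 in null array 2 (difference -0.13, interval -0.67 to 0.42), the widest interval of the 41 genes.

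The motor, spindle and checkpoint genes completed the list. Cenpe, a kinesin that moves chromosomes to the spindle equator, was 4.85, 5.19, 4.88, 4.65 and 5.13 in wild type and 4.84, 4.61, 4.66 and 4.63 in null arrays. The groups overlapped at the low end of wild type (difference -0.26, interval -0.50 to -0.01, limma adjusted p = 0.314). The spindle motor genes Kif11 and Kif20a differed by 0.066 and 0.056 and Kif23, needed for cytokinesis, by -0.13. The microtubule-binding spindle factors Tpx2 and Nusap1 differed by 0.11 and 0.18, and Stmn1, which destabilises microtubules, by -0.036 with a wide interval (-0.49 to 0.42). For the checkpoint kinases Bub1 and Bub1b and the kinetochore protein Cenpf differences were -0.016, -0.096 and -0.049. Bub1 was 3.17, 3.34, 3.29, 3.04 and 3.01 in wild type and 3.17, 3.11, 3.17 and 3.17 in null arrays, below the median of all probe sets, as were Cenpf, Kif23, Cdc6 and E2f1 among the 41 by their means.

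The intervals bound the size of each difference. For 40 of 41 genes the 95% interval lay within 1 log2 unit (a factor of 2) on either side of 0, the exception being Pttg1. Over all genes this held for 21691 of 22180, a share near that of the 41. The interval lay within 0.5 log2 units for 28 of 41 (68.3%, against 83.0% of all genes). Equal values were common: 23 of the 41 genes (56.1%, against 56.6% of all genes) had the same deposited value in 2 or more arrays, such as 5.40 for Gins2 in 5 arrays.

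The genes were also described array by array. For each gene the deviation from its mean over 9 arrays was taken, and the median over a list describes an array. The mitosis median was 0.17 in wild-type array 2 (0.19 without Pttg1) and between -0.087 and 0.016 in the other 8 arrays. Wild-type array 2 held the highest of the 9 values for 10 of 23 mitosis genes, among them Mki67, Ccnb2, Cdk1, Ube2c, Bub1b and Kif23, and null array 2 for 6, among them Plk1, Aurkb and Birc5. The replication median was 0.14, 0.11, 0.057, -0.003 and -0.018 in wild-type arrays 1 to 5 and -0.08, -0.015, -0.07 and 0.006 in null arrays 1 to 4, so the groups overlapped and wild-type arrays 1 and 2 were the high ones.

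Heat shock gene levels also differed between arrays. They were low in wild-type arrays 1 and 2, where the replication median was 0.14 and 0.11, and in null array 1, where it was -0.08. The mean level of the heat shock genes Hspa1a and Hspa1b was 3.06 in wild-type array 2, 3.70 in null array 1 and 5.94 in wild-type array 1, against 8.56 to 10.21 in the other 6 arrays. With that level as a covariate the median differences were -0.16 for replication and -0.046 for mitosis genes, and Pttg1 still passed. Null samples were more variable than wild type in 14 of 18 replication genes (77.8%) and 13 of 23 mitosis genes (56.5%), against 59.2% of all genes.

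**Figure D3:**
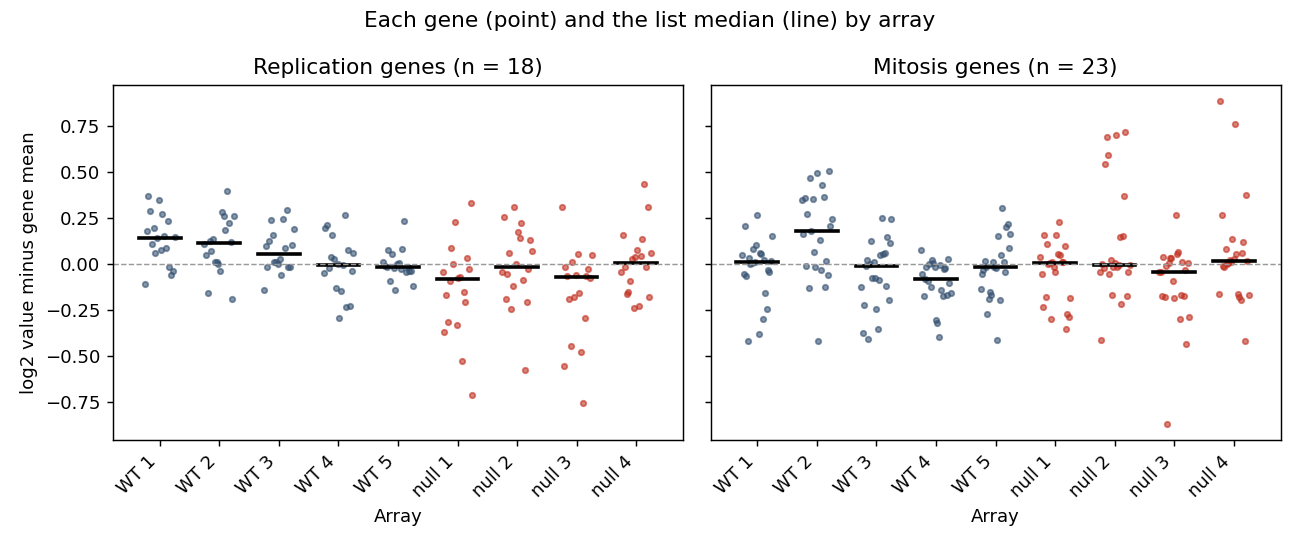
Deviation of each replication gene (left) and mitosis gene (right) from its own mean over the 9 arrays (log2, vertical axis) in each array, wild type in blue and null in red, with the list median as a black line. The mitosis median of wild-type array 2 (about 0.17) stands above those of the other arrays.

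**Figure D4:**
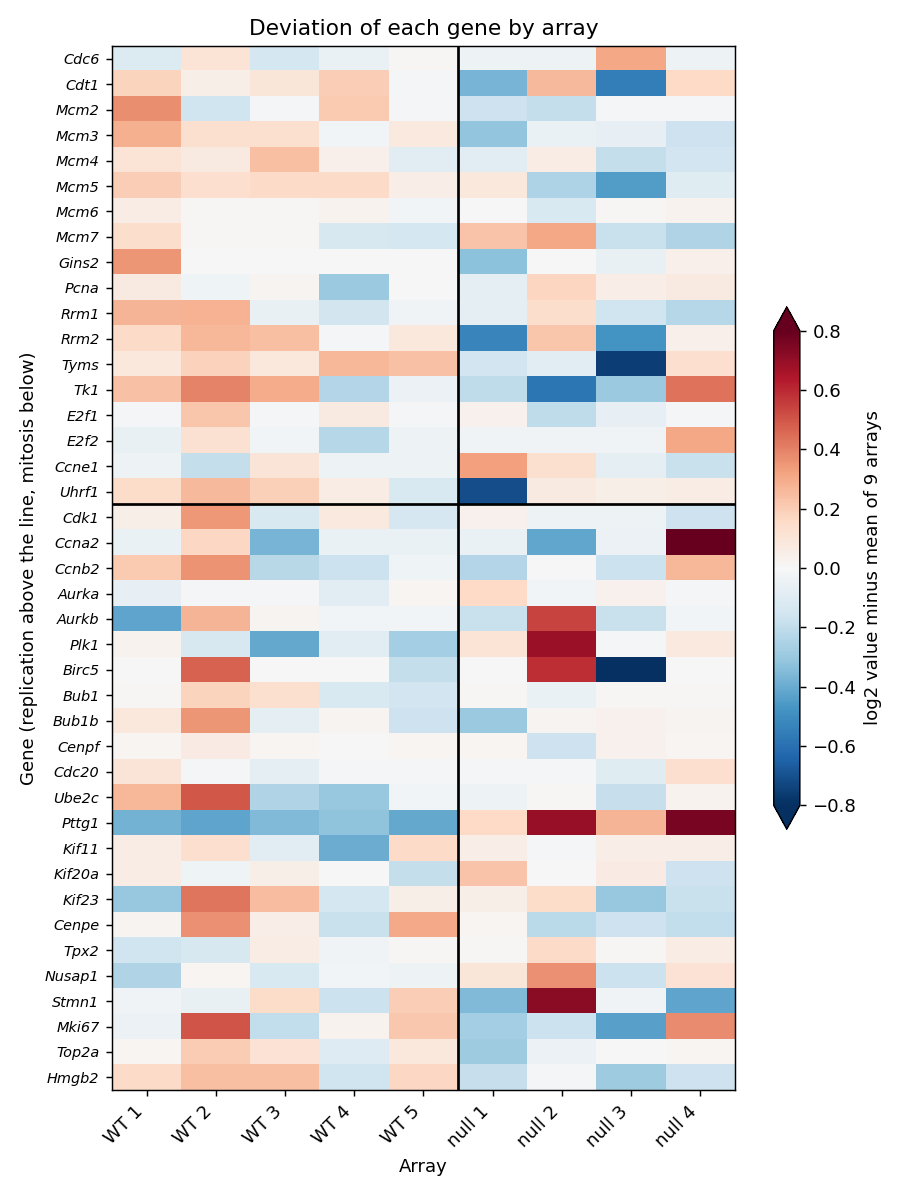
Deviation of each of the 41 genes (rows) from its mean over the 9 arrays (columns) as colour, red above and blue below (log2, with the scale ending at 0.8). Pttg1 is the row that is blue in all 5 wild-type and red in all 4 null arrays.

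Other genes of the same pathways were read from lists. Of 54 measured further replication genes 0 rose and 1 fell, and 37 had a difference below 0 (68.5%), with a median of -0.042. Over all genes 2.32% passed, 49.3% had a difference below 0 and the median was 0.0023. With genes of mean below the probe set median left out, 6.21% of the genes kept passed and their median difference was -0.037. The share that passed was near that of all genes in this list and the next. The fall was in Hells, a chromatin remodeller needed for DNA methylation, which was 5.40, 5.61, 5.06, 5.06 and 5.47 in wild type and 4.68, 4.91, 4.73 and 4.32 in null arrays. Its groups did not overlap (difference -0.66, limma adjusted p = 0.0451), but the call was lost in 13 of 19 alternatives, among them leaving out any 1 array other than null array 2. Of 65 measured further mitosis genes 0 rose and 1 fell (median -0.014). This was Ckap5, a microtubule polymerase of the spindle, with 7.11 to 7.33 in wild type and 6.73 to 6.88 in null arrays (difference -0.35, limma adjusted p = 0.0263), and it was lost in 11 of 19 alternatives, among them leaving out any 1 array other than null array 2.

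Among 19 transcription factors and retinoblastoma family members of the cell cycle, 0 rose and 1 fell, against 2.32% of all genes called. At an unadjusted p under 0.05 there were 8 of the 19 (42.1%, against 14.9% of all genes), and their median difference was -0.0092. Rbl2, the retinoblastoma relative p130 that represses cell cycle genes in resting cells, was 8.51, 8.94, 8.56, 8.78 and 8.73 in wild type and 7.90, 7.83, 7.76 and 8.18 in null arrays. All null values lay below all wild-type values, a 1.72-fold fall (difference -0.78, limma adjusted p = 0.0063) that passed under all 19 alternatives (adjusted p between 0.00373 and 0.0435). Of 13 G1 cyclin, kinase and inhibitor genes 1 passed, against 2.32% of all genes. At an unadjusted p under 0.05 there were 4 of the 13 (30.8%, against 14.9% of all genes). The gene that passed was Cdkn2c, an inhibitor of the cyclin D kinases, with a fall of 1.48-fold (difference -0.57, limma adjusted p = 0.0487). Its call was close to the threshold and lost in 12 of the 19 alternatives.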

How the data were processed

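The deposited values are log2 expression values, 1 per probe set and array, which the authors computed by RMA (Affymetrix Expression Console 1.1 in the submitters' processing notes). This method subtracts background, makes the distributions of single probe values equal between arrays and then fits 1 value to the probes of a set. The medians of the deposited values still ran from 3.99 to 4.08 between samples. Dim signal cannot be told from background in such values, and precision rests on the number of arrays. For the array design, the genome build is not given in the sources used. Gene order and promoters came from RefSeq tables of GRCm38.p6.

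Of 41345 probe sets, 23521 had 1 gene symbol in the platform annotation, 1814 had several and 16010 had none listed. For genes with several probe sets the one with the highest mean stood for the gene (22180 genes). Levels were set against the median of all probe sets and ranked to pick genes to name, but were not otherwise compared between genes. limma 3.58.1 in R 4.3.3 (lmFit, eBayes) compared 5 wild-type with 4 null samples over all genes, two-sided, with Benjamini-Hochberg adjustment and a threshold of 0.05, and was tested on simulated data. No filter on dim genes was applied.

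The genes and lists were chosen with earlier results of these data known. Array values were given for Mki67, Top2a and Pcna, the 4 genes of each list with the smallest p, those with the highest and lowest mean, and any that passed. Outside this rule, array values of Cdc20, Cdt1, Slu7 and the second Rrm2 probe set, and single values of further members, were given after values were seen. In other lists, genes that passed were named. Alternatives were a replicate block, leaving out dim genes, joining probe sets otherwise, centring, quantile normalization, other eBayes and weight settings, a heat shock covariate and leaving out arrays. Counts and plots used pandas 2.3.3, numpy 2.4.6 and matplotlib 3.10.9 in Python 3.11.15.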

Additional observations from a re-analysis of the deposited data

Results flagged for a closer look

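In groups of 4 or 5 arrays, the highest or lowest value was set against its gap to the nearest other value. Of 92 such groups 10 held a value far from the rest. In null arrays these were Cdc6 in array 3 (3.91, the others 3.56), E2f2 in array 4 (5.25, the others 4.91), Uhrf1 in array 1 (4.88, the others 5.64 to 5.66), Bub1b in array 1 (3.99, the others 4.31 to 4.32), and in array 2 Bub1 (3.11, the others 3.17), Cenpf (3.42, the others 3.60 to 3.62) and Kif11 (4.61, the others 4.68). In wild type they were Gins2 in array 1 (5.75, the others 5.40), Cenpf in array 2 (3.65, the others 3.59 to 3.60) and Hmgb2 in array 4 (8.05, the others 8.36 to 8.45). In several of these groups the other arrays share 1 deposited value, which makes any single departure stand out.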

How the results depend on the processing

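Pttg1 passed under all 19 alternatives. Of 774 combinations of gene and alternative over the 41 genes, 744 kept direction and side of the threshold, 2 newly passed (Rrm2 and Cdt1, giving 3 genes that passed without null replicates 2 and 4) and 28 changed sign, all in differences that had not passed. The cause of these changes was not tested. Leaving out 1 array each gave 271 to 594 calls over all genes, 0 to 1 among other replication genes and 0 to 2 among other mitosis genes, and medians of -0.19 to -0.12 for replication and -0.072 to 0.021 for mitosis genes. Other replication genes had 0 calls after quantile normalization, with array weights or with the heat shock covariate, and 2 without null replicates 2 and 4 (Gins4 and Asf1b, not Hells). Other mitosis genes had 0 after quantile normalization; their 1 call was Mad2l1 without null replicates 2 and 4 and Cdc25b without wild-type replicate 1, and their 2 calls without null replicate 2 were Mad2l1 and Ckap5. The replication median was -0.097 after quantile normalization, which also raised the share of higher genes among calls from 18.4% to 35.7%. Same-numbered samples did not pair (correlations of their deviations 0.042, -0.115, 0.011 and 0.041), and the replicate block gave 178 calls over all genes, 1 among other replication genes (Tipin, not Hells), 0 among other mitosis genes and 0.0094 for Stmn1.

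Signs also changed for Mcm6 (0.037) and Ccnb2 (0.007) after quantile normalization, for Bub1 (0.0054) and Cdc20 (-0.00019) with array weights, and without null replicates 2 and 4 for Aurkb (-0.15), Cenpf (0.00094) and Cdc20 (-0.05). Leaving out 1 array gave -0.01 to 0.12 for Cdc6, -0.039 to 0.14 for Mcm7, -0.0038 to 0.17 for Ccne1, -0.097 to 0.34 for Ccna2, -0.16 to 0.021 for Ccnb2, -0.092 to 0.15 for Aurkb, -0.35 to 0.14 for Birc5, -0.055 to 0.025 for Bub1, -0.037 to 0.039 for Cdc20, -0.17 to 0.028 for Ube2c, -0.026 to 0.11 for Kif11, -0.01 to 0.12 for Kif20a and -0.28 to 0.099 for Stmn1.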
